A study of Gallus gallus with 24 samples.

Results

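Myosin light chain transcripts were followed in Ross broiler chicks, a strain of meat chicken, in breast muscle, duodenum, liver and whole brain. The genes were MYLPF, MYL1, MYL2, MYL3, MYL4, MYL9 and MYL10, and their probe sets were those with 1 of these names as their single symbol in the array annotation. This gave 9 probe sets of 7 genes among the 38535 on the array, with 3 for MYL1 and 1 for each other gene, and all 9 were tested. Chicks had been taken right after hatching (day 0) or at 7 days of age, and the labels give them all as male. Each of the 8 groups of 1 tissue and 1 age held 3 pools of RNA from 4 to 5 chicks each, with 1 array per pool, so the spread between arrays is a spread between pools and not between single chicks. The labels do not say whether pools of different tissues came from the same chicks.

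A myosin motor is built of heavy chains that bind actin and hydrolyse ATP, and each heavy chain carries an essential and a regulatory light chain on its lever arm. The essential chains here are MYL1 of fast skeletal muscle, MYL3 of slow and ventricular muscle, and MYL4, known in mammals from the atrium and the embryo. The regulatory chains are MYLPF of fast skeletal muscle, MYL2 of slow and ventricular muscle, MYL9 of smooth muscle and non-muscle cells, and MYL10. Phosphorylation of the regulatory chain by myosin light chain kinases starts contraction in smooth muscle and modulates its force in skeletal muscle. Developing skeletal muscle of birds and mammals carries light chains that are later found mainly in slow or cardiac muscle.

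Values are MAS5 signals, an intensity on a linear scale relative to the rest of the array. The trimmed mean signal was 500.1 or 500.2 on every array, while the median signal ran from 85.1 to 146 over the arrays. The correlation across probe sets was 0.916 to 0.981 between arrays of a group and at most 0.804 between tissues. The array controls added before hybridisation were brighter on duodenum day 7 pool 1 (mean 43759) and day 0 pool 2 (26512) than on the other 22 arrays (5913 to 15150). A probe set of the W-linked, female-specific gene HINTW ranged from 1797 to 15934 over these pools labelled male, and its other probe set from 53.8 to 386. Whether these probes also match the related gene on the Z chromosome, which males carry, was not tested, so the signals do not show the sex of the pooled chicks. Markers of each labelled tissue reached the median signal of 104.6 there at both ages, in 5 of 5 listed for liver, 6 of 6 for brain, 6 of 6 for duodenum and 5 of 5 measured for skeletal muscle. Skeletal muscle markers summed to 235219 to 241628 in breast muscle on day 0 and 297029 to 371212 on day 7, against at most 5044 in any pool of another tissue.

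Changes are given on the scale log2(signal + 28.36) as day 7 minus day 0, each with its standard error from 1 limma fit over all 24 arrays. A change was called where its p, adjusted by Benjamini and Hochberg over the 25758 probe sets tested, was under 0.05. Means of signals are given with the SD over 3 pools. Signals of different probe sets were not ranked against each other, because probes differ in how brightly they report.

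**Figure D1:**
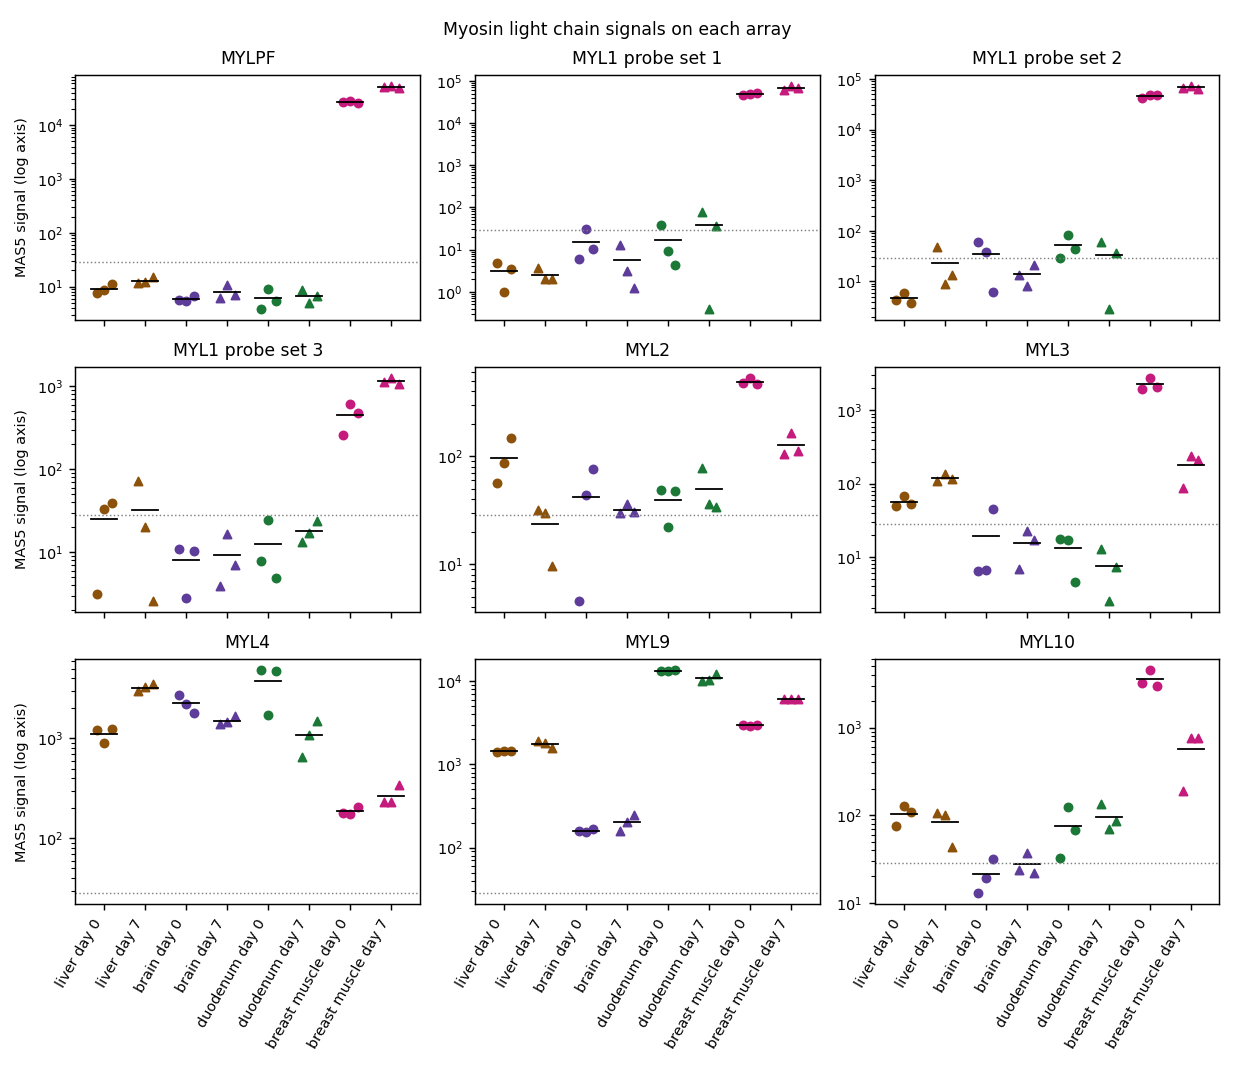
Signal of each of the 9 probe sets on every array, on a log axis, with circles for day 0, triangles for day 7, a bar at each group mean and a dotted line at 28.36, the value added before taking logs. The fast chains MYLPF and MYL1 were bright in breast muscle alone, MYL3 and MYL10 lay lower in breast muscle on day 7 than on day 0, MYL4 was lowest in breast muscle, and MYL9 was highest in duodenum.

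In breast muscle, 6 of the 9 probe sets were called for age, 3 of them higher and 3 lower on day 7, where 27.4% of all probe sets tested were called (11.9% higher and 15.5% lower). The fast regulatory chain MYLPF and the smooth muscle and non-muscle chain MYL9 were higher, and MYL2, MYL3 and MYL10 were lower. The third probe set called higher was 1 of the 3 of MYL1. All 9 had pools of day 0 and day 7 that did not overlap, against 46.6% of all probe sets. Because 6 of the 9 passed the filter on dim signals through the breast muscle groups alone, these counts describe the members. They are not read against the shares of all probe sets. In whole tissue RNA, fewer cells of a type and less RNA per cell cannot be told apart.

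MYLPF, the fast skeletal regulatory light chain, had signals of 26687, 27646 and 26211 in the breast muscle pools of day 0. On day 7 its signals were 50571, 54142 and 48784. Every pool of day 7 lay above every pool of day 0, and the ratio of the means was 1.91. The log2 change was 0.93 ± 0.19 with a 95% interval of 0.53 to 1.33 (limma adjusted p = 0.000690). With quantile normalization it was 0.55 ± 0.20 and was still called (limma adjusted p = 0.0391). In the 18 pools of the other tissues MYLPF lay between 3.9 and 14.9, below the value added before taking logs. On that scale the step from breast muscle day 0 to the next group, liver on day 7, was 9.35.

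MYL1, the fast skeletal essential light chain, was measured by 3 probe sets that differed in their call. Probe set 1 read 46539, 49148 and 50925 in breast muscle on day 0 and 62143, 76637 and 66405 on day 7. Probe set 2, whose type may match transcripts of more than 1 gene, read 41826, 47697 and 47194 on day 0 and 65679, 73677 and 64277 on day 7. In both, the day 7 pools lay wholly above the day 0 pools, with ratios of the means of 1.40 and 1.49. The log2 changes were 0.48 ± 0.34 (adjusted p = 0.318) for probe set 1 and 0.57 ± 0.35 (adjusted p = 0.240) for probe set 2, so neither was called in the limma fit over all arrays.

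The standard errors of these probe sets take in the spread of all 8 groups. For probe set 1 the SD of the log2 values was 0.065 and 0.15 in breast muscle on day 0 and day 7, 0.089 and 0.047 in liver, 0.41 and 0.25 in brain, and 0.55 and 0.95 in duodenum. With breast muscle fitted alone in limma, both were called, with log2 changes of 0.48 ± 0.093 (adjusted p = 0.00114) and 0.57 ± 0.090 (adjusted p = 0.000225). With quantile normalization, which gives every array the same set of values, the change of probe set 1 turned to -0.03 and was not called (limma adjusted p = 0.966). Whether the brightest MYL1 probe sets rose therefore depended on these choices. The 5 skeletal muscle markers, also bright in breast muscle, had a median log2 change of 0.46 there, so a change of this size was not particular to MYL1. Of these markers 0 were called, where 15.2% of all genes rose and 18.2% fell.

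Probe set 3 of MYL1, of the type made for alternative transcripts of 1 gene, read 254.6, 614.5 and 479.6 in breast muscle on day 0. On day 7 it read 1134, 1256 and 1060, all above day 0. Its mean rose 2.56-fold, by 1.38 ± 0.39 on the log2 scale (limma adjusted p = 0.00889). Without pool 1 of day 0, the lowest, the log2 change was 1.04 and the call was lost (limma adjusted p = 0.0770). Outside breast muscle the 3 probe sets of MYL1 read at most 77.2, 81.7 and 72.5 in any pool.

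MYL3, the slow and ventricular essential light chain, showed the largest age change of the 7 genes in breast muscle. Its signals were 1938, 2778 and 2082 on day 0, and 86.6, 237.6 and 207.0 on day 7. The pools of the ages were far apart, and the day 0 mean was 12.8 times that of day 7. The log2 change was -3.55 ± 0.33 with a 95% interval of -4.24 to -2.86 (limma adjusted p = 1.47e-08). On day 0 MYL3 was higher in breast muscle than in each other tissue, by 4.75 over liver, the next. By day 7 it was no longer called above liver, at 0.39 ± 0.33 (limma adjusted p = 0.370). The liver pools of 108.9, 134.2 and 116.4 overlapped those of breast muscle. They all lay above the liver pools of day 0, whose mean was 56.2 ± 9.48. The liver change of 0.81 ± 0.33 was not called (limma adjusted p = 0.132).

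MYL10, a regulatory light chain that the gene table also names MLC-2B, fell in breast muscle as well. It read 3197, 4525 and 3020 on day 0 and 187.4, 764.3 and 758.9 on day 7. No pool of day 7 reached the lowest of day 0, and the ratio of the day 0 to the day 7 mean was 6.28. The log2 change was -2.79 ± 0.41 (limma adjusted p = 1.15e-05). Pool 1 of day 7 stood apart from the other 2, and without it the log2 change was -2.17 ± 0.37 (limma adjusted p = 0.000117). MYL10 remained higher in breast muscle than in each other tissue on day 7, by 2.07 ± 0.41 over duodenum and 2.26 ± 0.41 over liver. As MYL10 passed the filter on dim signals through the breast muscle groups alone, these differences between tissues are descriptive.

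MYL2, the slow and ventricular regulatory light chain, read 476.1, 530.0 and 464.6 in breast muscle on day 0 and 105.3, 163.0 and 111.8 on day 7. Its groups did not overlap, and the day 0 mean was 3.87 times the day 7 mean. The log2 change was -1.76 ± 0.37 (limma adjusted p = 0.000768). MYL2 also passed the filter on dim signals through the breast muscle groups alone, so its differences between tissues are descriptive. On day 7 it was still called above each other tissue, by 1.02 ± 0.37 over duodenum (limma adjusted p = 0.0239). Pool 1 of day 7 held the lowest signal of that group for MYL2, MYL3 and MYL10 alike.

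MYL2 was also called lower in liver on day 7, where its signals were dim. They were 56.6, 86.1 and 148.5 on day 0 and 32.1, 29.6 and 9.6 on day 7, close to or below the 28.36 added before taking logs. The log2 change was -1.23 ± 0.37 (limma adjusted p = 0.0296), and became -0.63 when the median signal was the value added. The call was lost with no filter on dim probe sets (adjusted p = 0.0535) and without day 0 pool 2 (0.0710), day 0 pool 3 (0.172) or day 7 pool 3 (0.138).

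Markers of other cell types also moved in breast muscle, where 15.2% of all genes tested rose and 18.2% fell. Of the 5 measured heart muscle markers 4 were tested, and 2 of these were called higher, GATA4 and MYBPC3. NPPA, NKX2-5, TBX5 and GATA4 were dim, with means of 4.28 to 76.2 at both ages, GATA4 going from 24.6 to 76.2. MYBPC3, a cardiac myosin binding protein, went from 1338 ± 614 to 8986 ± 1580. The 2 measured satellite cell markers, PAX7 and MYF5, were both called lower, with their sum at 2700 to 3295 on day 0 and 1107 to 1143 on day 7. Of 4 endothelial markers 3 were called lower, with a sum of 13796 to 15140 on day 0 and 9192 to 10004 on day 7. Of 4 macrophage markers 3 were called higher, with a sum of 4590 to 5457 on day 0 and 6778 to 7220 on day 7, and of 4 red blood cell markers 2 were called higher, with a sum of 41024 to 47094 and then 53411 to 70296. The part of these cells in the fall of MYL2, MYL3 and MYL10 and in the rise of MYLPF and MYL9 was not tested.

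**Figure D2:**
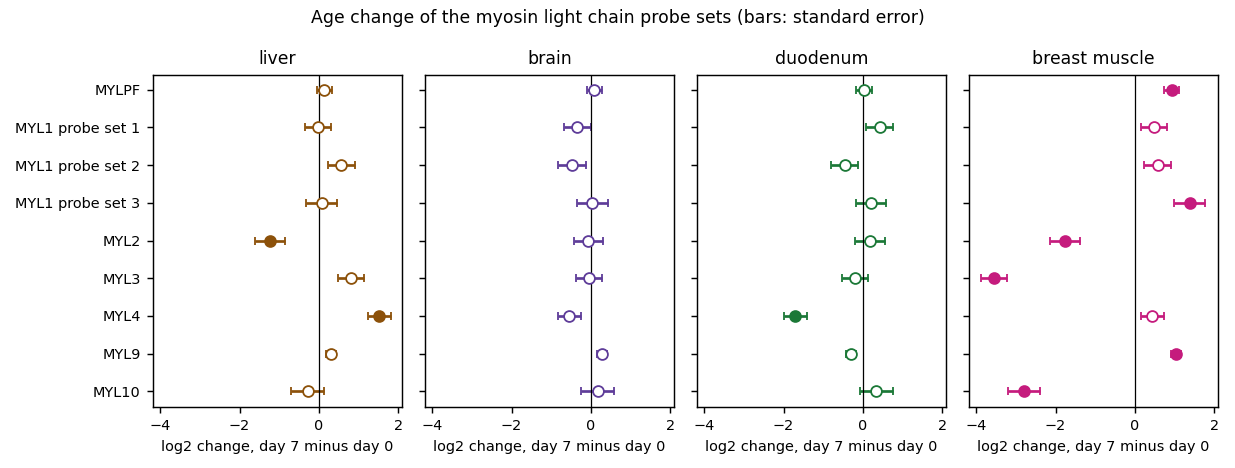
Log2 change from day 0 to day 7 with its standard error for each of the 9 probe sets in each tissue, with filled symbols for changes called at an adjusted p under 0.05 and open symbols for the others. In breast muscle MYL3, MYL10 and MYL2 lay at -3.55, -2.79 and -1.76 and MYL9 and MYLPF at 1.03 and 0.93, and MYL4 was called upward in liver and downward in duodenum.

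MYL4, the essential light chain of the mammalian atrium and embryo, was bright outside breast muscle. What the probes of its 1 probe set match was not tested, and all MYL4 values rest on that probe set. In liver its signals were 1208, 895 and 1252 on day 0 and 2964, 3255 and 3485 on day 7. Every day 7 pool was higher, the ratio of the means was 2.89, and the log2 change was 1.52 ± 0.29 (limma adjusted p = 0.000742). In duodenum the signals were 4833, 1738 and 4743 on day 0 and 659, 1087 and 1503 on day 7. Here every day 7 pool was lower, the day 0 mean was 3.48 times the day 7 mean, and the log2 change was -1.71 ± 0.29 (limma adjusted p = 0.000111). Without the 2 duodenum arrays of bright hybridisation controls, the change was -1.88 ± 0.21 (limma adjusted p = 1.08e-06).

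In whole brain MYL4 read 2696, 2230 and 1820 on day 0 and 1387, 1458 and 1695 on day 7. The day 7 pools lay below those of day 0, but the log2 change of -0.55 ± 0.29 was not called (limma adjusted p = 0.867), with a 95% interval of -1.15 to 0.05. In breast muscle MYL4 read 180.9, 175.7 and 204.7 on day 0 and 233.5, 229.0 and 341.3 on day 7, which was not called either, at 0.44 ± 0.29 (limma adjusted p = 0.286). The order of the groups by mean log2 signal ran from duodenum day 0 through liver day 7, brain day 0, brain day 7, liver day 0 and duodenum day 7 to breast muscle on day 7 and then day 0. Of neighbours in this order, only duodenum day 7 and breast muscle day 7 were called different, by 1.85 ± 0.29 (limma adjusted p = 7.02e-06), although the pools of some other neighbours, such as the ages of brain and of breast muscle, did not overlap.

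The age changes of MYL4 differed between tissues. The change in liver exceeded that in duodenum by 3.23 ± 0.41 on the log2 scale (limma adjusted p = 8.43e-06) and that in brain by 2.07 ± 0.41 (limma adjusted p = 0.00286), and duodenum lay below breast muscle by 2.15 ± 0.41 (limma adjusted p = 0.000357). Blood and immune markers moved in these tissues too. The sum of 4 measured red blood cell markers went from 36803 to 44723 on day 0 up to 88162 to 90399 on day 7 in liver, from 3869 to 6272 up to 13344 to 15394 in duodenum, and from 15454 to 18338 up to 51805 to 54737 in brain. Macrophage markers summed to 10468 to 10579 and then 39972 to 47736 in liver, and to 5406 to 7081 and then 24301 to 42035 in duodenum. Other marker sets were lower in duodenum on day 7. The 6 brain markers summed to 3080 to 4025 and then 1117 to 1529 there, with 3 called lower and 0 higher. The 5 fibroblast markers summed to 104079 to 182983 and then 69549 to 118312, with 4 called lower and 0 higher. Of all genes in duodenum, 10.5% rose and 19.2% fell. The part of these cells in the changes of MYL4 was not tested.

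MYL9, the regulatory light chain of smooth muscle and non-muscle cells, was called above each other tissue in duodenum at both ages, as were 6.93% of all probe sets on day 0 and 8.5% on day 7. In breast muscle it read 3019, 2902 and 2955 on day 0 and 6118, 6065 and 6089 on day 7. The ages were well apart, the ratio of the means was 2.06 and the log2 change was 1.03 ± 0.13 (limma adjusted p = 9.03e-07). In duodenum it read 13245, 13501 and 13643 on day 0 and 10001, 10457 and 12364 on day 7. Those day 7 pools were all lower, but the log2 change of -0.30 ± 0.13 was not called (limma adjusted p = 0.0880), and it was called with quantile normalization at -0.45 (limma adjusted p = 0.0277), with array weights at -0.29 (0.0412) and without day 7 pool 3 at -0.40 (0.0473).

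In liver MYL9 read 1412, 1449 and 1444 on day 0 and 1889, 1837 and 1588 on day 7, at 0.30 ± 0.13 (limma adjusted p = 0.152). In brain it read 159.6, 152.3 and 165.4 on day 0 and 158.0, 201.6 and 246.7 on day 7, at 0.28 ± 0.13 (limma adjusted p = 0.729). The day 7 pools lay above those of day 0 in liver, while in brain the ages overlapped, and neither change was called. The order of levels was duodenum, breast muscle, liver and brain, with the ages of breast muscle called apart and those of the other tissues not. Between neighbours of different tissues, duodenum day 7 exceeded breast muscle day 7 by 0.84 ± 0.13, breast muscle day 0 exceeded liver day 7 by 0.73 ± 0.13, and liver day 0 exceeded brain day 7 by 2.68 ± 0.13 (limma adjusted p of 2.82e-05 or less).

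The summed signal of 4 measured smooth muscle markers was lower on day 7 in breast muscle, where MYL9 rose. It was 5006 to 6101 on day 0 and 3094 to 4111 on day 7, and MYH11, the smooth muscle myosin heavy chain, fell by 0.80 on the log2 scale there (limma adjusted p = 0.000495). In duodenum the sum was 66092 to 91469 on day 0 and 43313 to 68329 on day 7, and MYH11 fell by 0.73 (limma adjusted p = 0.00148). Of these 4 markers, 1 was called lower in each of these tissues, MYH11. Of all genes, 18.2% fell in breast muscle and 19.2% in duodenum. The mean of ACTA2 in breast muscle was higher on day 7 (97.0, against 67.6 on day 0), but it was dim and its pools overlapped. They ran from 49.5 to 85.6 on day 0 and from 48.1 to 181.2 on day 7. The part of smooth muscle cells in the changes of MYL9 was not tested.

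Over the 4 tissues, the F test of a difference in age change was called for 6 of the 9 probe sets, against 30.4% of all probe sets tested. These were MYLPF, MYL2, MYL3, MYL4, MYL9 and MYL10, and no probe set of MYL1 was called. This count too describes the members and is not read against that share. For single pairs, the differences called over all probe sets were 4.42% between liver and brain, 8.44% between liver and duodenum, 20.3% between liver and breast muscle, 10.4% between brain and duodenum, 14.6% between brain and breast muscle and 24.3% between duodenum and breast muscle. The age change of MYLPF in breast muscle exceeded that in liver by 0.79 ± 0.27 (limma adjusted p = 0.0415), that in brain by 0.84 ± 0.27 (0.0373) and that in duodenum by 0.90 ± 0.27 (0.0176). In those tissues every MYLPF pool lay below the 28.36 added before taking logs, which presses changes together there. These differences and its F call therefore mostly carry the change in breast muscle. MYL3 and MYL10 changed more in breast muscle than in each other tissue, by at least 3.35 ± 0.47 for MYL3 and 2.51 ± 0.58 for MYL10 (limma adjusted p of 0.00273 or less). Every duodenum pool of MYL3 also lay below 28.36, at 2.5 to 17.6, so that difference too mostly carries the change in breast muscle. In brain MYL3 read at most 45.1 and MYL10 at most 36.7 in any pool. The MYL2 change in breast muscle differed from that in brain (1.70 ± 0.52, limma adjusted p = 0.0283) and duodenum (1.94 ± 0.52, 0.00780). The difference from liver, 0.53 ± 0.52, was not called (limma adjusted p = 0.540). MYL9 differed in 5 of its 6 pairs of tissues, most between duodenum and breast muscle at 1.34 ± 0.18 (limma adjusted p = 4.97e-06), and the pair not called was liver and brain at 0.01 ± 0.18 (0.990).

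By tissue, 2 of the 9 were called for age in liver (MYL4 higher and MYL2 lower, against 11.5% of all probe sets, 5.33% higher and 6.15% lower), 1 in duodenum (MYL4 lower, against 23.1% of all, 14.1% being lower) and 0 in brain (against 0.233%). In brain MYL9 was the 1 probe set with an unadjusted limma p under 0.05. The pools of the ages did not overlap for 6 of 9 in liver (34.4% of all), 2 in duodenum (31.9%) and 1 in brain (13.1%). Between tissues of 1 age, 76 of 108 pairwise differences were called, against 49.7% over all probe sets. Breast muscle was called above each other tissue for 7 of 9 on day 0 (9.56% of all) and 6 of 9 on day 7 (11.1%), the difference being MYL3. Liver on day 7 was called above each other tissue for MYL4 (7.45% of all). As 6 of the 9 passed the filter on dim signals through the breast muscle groups alone, these counts describe the members and are not read against the background.

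Pairs of genes were also set against each other within each breast muscle array, as the log2 ratio of their signals with 28.36 added to both, each gene by its brightest probe set. Because a fixed value was added, such a ratio still depends in part on the scaling of the array where a signal is low, as for MYL2 and MYL3 on day 7. An exact two-sided permutation test of 3 pools against 3 cannot give a p below 0.1, and adjusted over the 21 pairs no p was below 0.117. The log2 ratio of MYLPF over MYL3 was higher by 4.48 on day 7, that of MYL1 over MYL3 by 4.03 and that of MYLPF over MYL2 by 2.69. The fast chains changed less against each other, with MYLPF over MYL1 higher by 0.45. MYLPF over MYL9 changed by -0.11 with overlapping pools (exact permutation p = 0.3), and MYL1 over MYL4 by 0.04 (exact permutation p = 0.9).

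**Figure D3:**
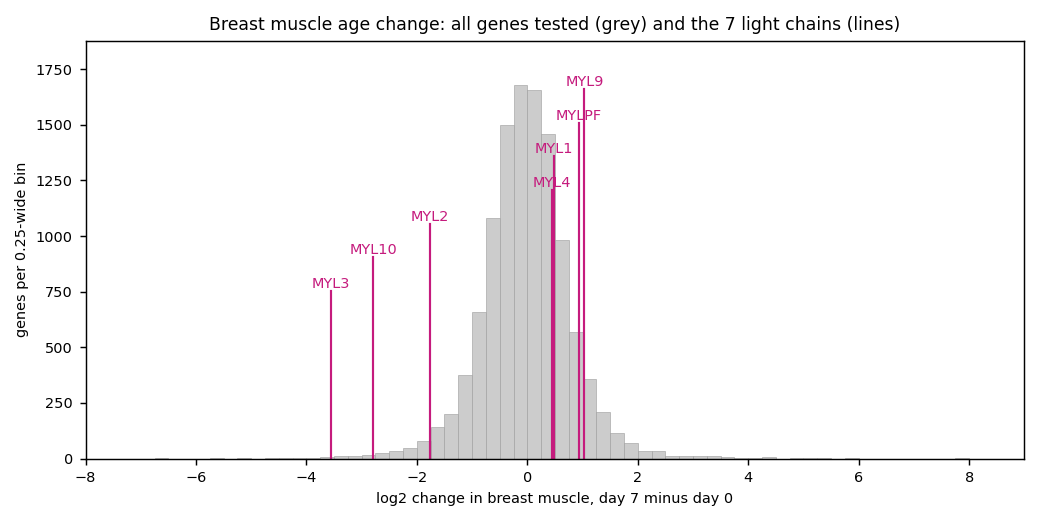
Distribution of log2 changes in breast muscle over the 11421 genes tested, each by its brightest probe set, in bars of genes per bin, with the 7 myosin light chain genes marked as vertical lines (the line heights carry no meaning). The median of all genes was -0.02 and the 10th and 90th percentiles were -0.91 and 0.87, so MYL3, MYL10 and MYL2 lay below this range, MYLPF and MYL9 above it, and MYL1 and MYL4 within it.

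Of the other myosin light chains, 2 of 10 listed genes were the single symbol of a probe set in the array annotation. MYL6, the essential light chain of smooth muscle and non-muscle myosin, was not called for age in any tissue, with log2 changes from -0.31 ± 0.28 in brain to 0.49 ± 0.28 in liver. MYL12A, a non-muscle regulatory light chain, was not called by its brightest probe set, with changes from -0.13 ± 0.12 in breast muscle to 0.09 ± 0.12 in duodenum. Probe set 3, with a change of 0.27 ± 0.49 in breast muscle (limma adjusted p = 0.737), was not called in any tissue either. Probe set 2 was lower in breast muscle on day 7, at 1977 ± 122 and then 1147 ± 51.6 (log2 change -0.77 ± 0.24, limma adjusted p = 0.0183). The 3 probe sets of MYL12A thus differed in their call in breast muscle.

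Transcripts were also examined for the kinases, phosphatase subunits and other proteins that act on phosphorylation of the regulatory chains. Of 15 genes tested of 20 listed, in breast muscle 4 rose and 2 fell, and the median change was 0.11, against 15.2% that rose and 18.2% that fell of all 11421 genes and a median of -0.02. MYLK4, a myosin light chain kinase, read 47.3 ± 40.6 on day 0 and 738 ± 88.2 on day 7, a log2 change of 3.51 ± 0.42 (limma adjusted p = 6.06e-07), and its other probe set was called upward too. MYLK3, the cardiac myosin light chain kinase of mammals, moved from 245 ± 19.4 to 64.3 ± 10.03, at -1.57 ± 0.30 (limma adjusted p = 0.000300), though its other probe set was not called. ROCK2, which restrains the myosin phosphatase, rose by 1.19 ± 0.26, and MYLIP, a ubiquitin ligase that binds the regulatory light chain, changed by -0.88 ± 0.16. The kinases MYLK, of smooth muscle, and MYLK2, of skeletal muscle in mammals, had log2 changes of -0.36 (limma adjusted p = 0.223) and 0.17 (0.827). MYLK probe sets 2 and 3 were not called in breast muscle either, at -0.40 and -0.12 (limma adjusted p = 0.131 and 0.790).

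**Figure D4:**
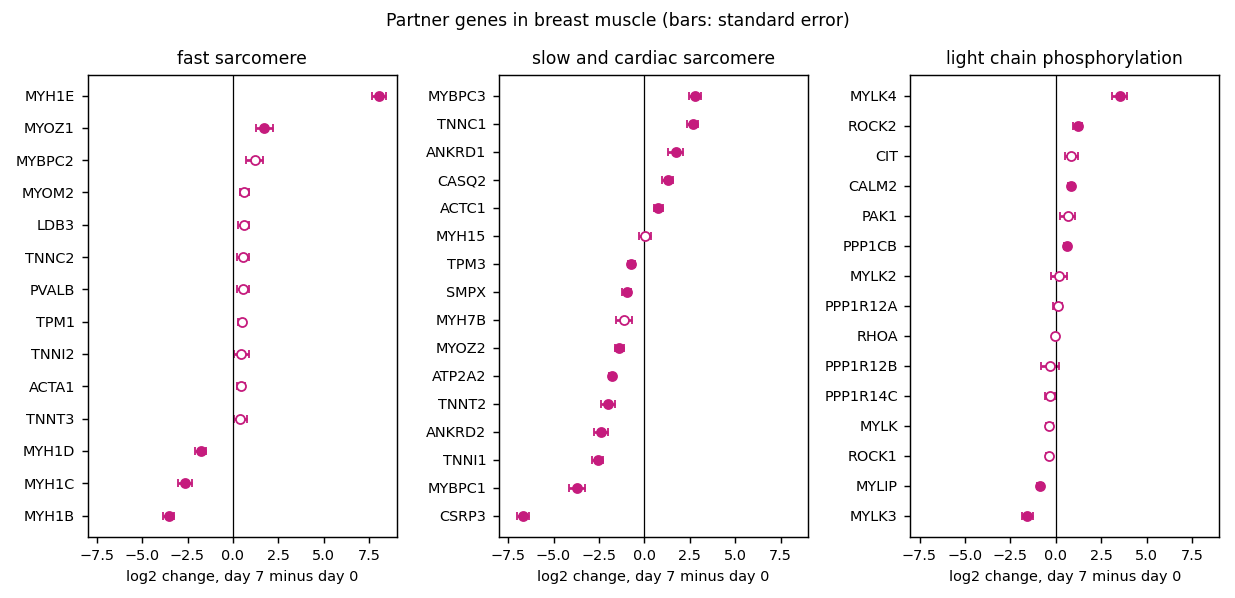
Log2 change in breast muscle with its standard error for the tested genes of the phosphorylation, fast sarcomere and slow and cardiac sarcomere lists, with filled symbols for genes called at an adjusted p under 0.05 and open symbols for the others. MYH1E at 8.02 and CSRP3 at -6.66 mark the ends, and in the slow and cardiac list 9 genes lay below and 5 above 0 among those called.

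Of 14 tested genes of the fast sarcomere list in breast muscle 2 rose and 3 fell, shares near the 15.2% that rose and 18.2% that fell of all genes, with a median of 0.53. MYH1E, a fast myosin heavy chain, went from 207 ± 69.3 to 59549 ± 7601 (8.02 ± 0.38, limma adjusted p = 1.61e-13), while the heavy chains MYH1B, MYH1C and MYH1D changed by -3.54 ± 0.30, -2.64 ± 0.41 and -1.77 ± 0.31. These heavy chain genes are close copies, and probes may be shared between them. Of 16 slow and cardiac genes 9 fell and 5 rose, against the same shares of all genes, with a median of -1.05. CSRP3, a LIM protein of the Z-disc, fell by 6.66 and MYBPC1, the slow myosin binding protein C, by 3.72. The slow and cardiac troponin C gene TNNC1 rose by 2.65 ± 0.30 and MYBPC3 by 2.80 ± 0.33, so the list did not move as 1 group.

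The counts of the next lists are set beside the same shares, 15.2% that rose and 18.2% that fell of all genes. Of 10 smooth muscle genes in breast muscle 1 rose (SYNPO2, a Z-disc and smooth muscle protein, by 1.49 ± 0.37) and 2 fell (MYH11 and the tropomyosin TPM2, at -0.64 ± 0.19), with a median of -0.09. Of 6 non-muscle myosin and actin genes 2 fell, the heavy chains MYH10 (-0.94 ± 0.15) and MYH9 (-0.40 ± 0.14), with a median of -0.27. Of 15 muscle transcription factors 2 rose and 2 fell, with a median of -0.07. MYOG, a factor of muscle differentiation, rose by 1.04 ± 0.32 and MYF5, an early muscle factor, changed by -1.52 ± 0.44. PROX1 changed by -0.52 ± 0.14, and GATA4, at 1.04 ± 0.35, was dim at both ages.

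In duodenum, where MYL9 was highest, 3 of 10 smooth muscle genes fell and 0 rose, with a median of -0.46 against -0.12 for all genes (10.5% of all genes rose and 19.2% fell). MYOCD, a coactivator of smooth muscle genes, changed by -1.28 ± 0.29 (limma adjusted p = 0.00204) and TPM2 by -0.56 ± 0.19. Of the 15 phosphorylation genes, each by its brightest probe set, 3 fell, a share near the 19.2% of all genes. PPP1R14C, an inhibitor of protein phosphatase 1, changed by -1.77 ± 0.26. The kinase CIT changed by -1.12 ± 0.37 and the catalytic subunit PPP1CB by -0.57 ± 0.17. MYLK was not called by probe set 1 (-0.51, limma adjusted p = 0.0852) or probe set 2 (-0.47, 0.0804). Its probe set 3 was called lower in duodenum, at -1.44 ± 0.27 (limma adjusted p = 0.000260). In liver, 1 of 16 slow and cardiac genes rose, TNNC1 by 2.42 ± 0.30, and 1 fell, MYH15 at -1.64. These shares lie near the 6.37% of all genes that rose and the 8.99% that fell. Of the phosphorylation genes in liver 1 fell, CIT, at -1.20 ± 0.37. MYLK probe set 2 was called higher in liver, at 1.09 ± 0.19 (limma adjusted p = 0.000308). Probe sets 1 and 3 of MYLK were not called there, at 0.48 and 0.28 (limma adjusted p = 0.160 and 0.603). In brain no gene of these lists was called, where 0.193% of all genes rose and 0.105% fell.

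The genes whose log2 signal was most like that of each member over the 24 arrays are given as a description, since the arrays share 4 tissues and most of the variation lies between these. For MYLPF they were UNC45B, a myosin chaperone (Pearson r = 0.999), CKMT2, the mitochondrial creatine kinase of muscle (0.997), MYL1 (0.994), CMYA5 and NEB. For MYL1 they were MYLPF, HSPB3, UNC45B, TTN and NEB, with r from 0.991 to 0.994. For MYL2 they were LOC418543 and the cardiac troponin TNNT2 (r = 0.904 and 0.903), ACACB, MYL10 and LECT1.

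For MYL3 the closest were FLI1 (r = 0.927), the slow troponin TNNI1 (0.924), MYL10 (0.924), AGTR1 and ADPRHL1. For MYL10 they were FHL1 (r = 0.948), COQ8A, LOC418543, COBL and RCSD1. MYL9 was closest to AP3B1 (r = 0.971) and to the actin-binding caldesmon CALD1 (0.952), then HADH, PALLD and CRIP1. MYL4 was closest to SCCPDH (r = 0.933) and to the liver phosphofructokinase PFKL (0.906), then SLCO4A1, FGFR2 and LOC107050649. Among the members themselves, MYL4 had r of -0.87 with MYLPF and -0.88 with MYL1, and MYL9 had r between -0.21 and 0.39 with all others.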

How the data were processed

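The values the authors deposited are linear intensity, a MAS5 signal for every probe set of an array, per the submitters' processing notes. Its version, settings and detection calls were not given in the sources used here. MAS5 signals near the background are noisy, so changes of dim probe sets carry more error. The equal trimmed means show that arrays were scaled alike before deposit. Probe sets were named from the array annotation (27178 with 1 symbol, 177 with several and 11180 with none), updated by gene number through the RefSeq table of GRCg7b (26863 matched). Coordinates and sequences were not used here, since the sources name no build.

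Signals were taken as log2(signal + 28.36), the 25th percentile of all signals. After 96 control probe sets were left out, 25758 probe sets with a group mean on that scale at or above that of the median signal of 104.6 were fitted with 8 group means and a variance trend in limma 3.58.1 (R 4.3.3; 16 residual degrees of freedom and 7.94 from the prior). The 3 pools per group limit the precision. For gene lists each gene was taken by its brightest probe set (11421 genes tested).

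All probe sets of the 7 genes are reported. The text also names up to 4 called genes per list by size of change. Every other listed light chain that was the single symbol of a probe set is named. So are the 5 genes with the highest Pearson r to each member. MYLK, MYLK2 and single marker genes were named after their values were seen. The members and lists were chosen with earlier results of these data known. The fit was tested on simulated data. Alternatives were other added values, filters and normalizations, array weights, robust variances, variances without a trend, a replicate block, single tissues and each pool left out.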

Additional observations from a re-analysis of the deposited data

Results flagged for a closer look

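The age change differed between the 4 tissues for 6 of the 9 probe sets. This was by limma's F test on the 3 differences in age change, adjusted over all 25758 probe sets. The same test called 30.4% of all probe sets. MYLPF, MYL2 and MYL10 passed the filter on dim signals through the breast muscle groups alone, so the count is not read against that share. The adjusted p was 0.0338 for MYLPF, 0.0129 for MYL2, 6.51e-07 for MYL3, 1.07e-05 for MYL4, 3.79e-05 for MYL9 and 0.000421 for MYL10. MYL4 was the 1 member called in opposite directions in 2 tissues, 1.52 ± 0.29 in liver and -1.71 ± 0.29 in duodenum. For MYLPF, MYL3 and MYL10 breast muscle stood apart from each other tissue. MYLPF in all those tissues, and MYL3 in duodenum, lay below the value added before taking logs. For MYL9 both breast muscle and duodenum differed from each other tissue. With 3 pools per group no single pool was tested as an outlier.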

How the results depend on the processing

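Of 292 values of 17 member and tissue results under the alternatives, 277 kept their direction and side of the threshold, 7 lost and 7 gained a call, and 1 reversed. The reversal was of MYL1 probe set 1 in breast muscle, -0.026 with quantile normalization. In breast muscle MYLPF, MYL2, MYL3, MYL9 and MYL10, and MYL4 in liver and duodenum, kept their calls throughout, MYLPF at 0.55 with quantile normalization (limma adjusted p = 0.0391). The count called in duodenum was 1, and 2 with quantile normalization, with array weights and without day 7 pool 2 or 3 (1 to 2 over pools left out). In liver it was 2, and 1 with no filter, with the replicate block and without day 0 pool 2 or 3 or day 7 pool 3 (1 to 2 over pools left out). The liver count was also 1 with liver fitted alone, where MYL2 did not pass the filter on dim signals and was not tested. In breast muscle it was 6 (5 to 8), and 0 in brain throughout. The F test count was 6 (4 to 8) and tissue differences 76 (68 to 77). MYL1 probe set 3 lost its call with the 10th percentile added (limma adjusted p = 0.122), and probe sets 1 and 2 gained theirs with the median added (0.0297 and 0.0140). Beyond what the text gives, the cause was not tested. Replicate numbers showed no clear pairing of the arrays. Deviations of same-numbered pools of the ages correlated at -0.44 to 0.38, over 0.1 in 2 of 12, and 6 of 12 day 0 pools correlated best with their own number. Those of same-numbered pools of different tissues of an age correlated at -0.20 to 0.14, with a median of 0.03, over 0.1 in 2 of 36. These values cannot exclude a weak pairing and do not show whether tissues came from the same chicks. With the replicate block 1 result changed its call, MYL2 in liver (limma adjusted p = 0.0628). Low signals outside breast muscle, below the added value for MYLPF and dim for MYL1, MYL2, MYL3 and MYL10, limit what can be read there.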
